A study of Mus musculus with 12 samples.

Results

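The genes described here are 50 genes of mitosis and chromosome segregation, chosen by name as mitotic kinases, kinetochore, spindle, cytokinesis and condensin genes. They were found by symbol among the 30389 genes of the deposited muscle table. All 50 had a row, all 50 are annotated as protein coding, and they lie on 18 chromosomes. Messenger RNA had been sequenced from the muscle of 6 C57BL/6 mice, with 2 libraries an animal. The 3 anomaly animals carried VEC-Cre, which is Cre recombinase under the promoter of the endothelial gene for VE-cadherin, together with the Sleeping Beauty (SB) transposase and the onc3 transposon, a mobile DNA element. The tissue sequenced from them was vascular anomaly in muscle, taken as pieces of tissue in animals 1 and 3 and as separate lesions in animal 2. The 3 normal animals carried the SB transposase and onc3 but no Cre, and gave pieces of normal muscle. Transposase and transposon were therefore common to both groups, and the groups differed in Cre, in the presence of a lesion and in the tissue sampled. Ages are not given in the sources used here, and transposon insertions were not analysed here. Each group thus had n = 3 animals as its replicates.

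Recovered depth ran between 254404 and 18476461 reads for the anomaly group and between 17380211 and 32155879 for the normal group. The lowest value was piece 1 of anomaly animal 1, where 1 recovered unit weighed 1.85 CPM against at most 0.0719 in the other libraries. In that library 40.4% of detected genes stood at exactly 1 unit, against 12.1% to 13.4% in the other 11, so its units may not be reads as sequenced. The calls of the 50 genes, and the counts that rest on this library, were therefore also made with animal 1 represented by piece 2 alone. CPM is the usual read count scaled to library size, here with the authors' scaling. The labelled tissue was present in every normal library, where the 14 contractile genes examined summed to 349574 to 423864 CPM. They summed to 278 to 48959.5 CPM in anomaly libraries, where 12 endothelial genes summed to 2240.3 to 8358 CPM against 366 to 569 CPM in normal libraries.

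Mitosis is driven by the kinase CDK1 with cyclins A and B, helped by Aurora and polo-like kinases. Kinetochores attach chromosomes to spindle microtubules, the spindle checkpoint holds anaphase until all are attached, and the anaphase-promoting complex (APC/C) then marks securin and cyclin B for destruction so that separase can part the chromatids. Most transcripts of this machinery accumulate in late S, G2 and M phase and are scarce in cells that have left the cycle, as the nuclei of adult muscle fibres have.

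Nearly all of the set was far more abundant in anomaly tissue than in normal muscle. Of the 50 genes, 48 were higher, 1 was lower (Pttg1, securin) and 1 was not called (Aurka, Aurora A) in limma's test at an adjusted p under 0.05. In all genes tested the shares were 32.4% higher and 31.0% lower. All 50 passed the filter of at least 1 CPM on average in a group, 31 of them with a normal mean under 1 CPM, which had to pass through the anomaly group. The same 48 genes had all 6 anomaly libraries above all 6 normal libraries, as did 28.8% of all genes tested. Pttg1 had all 6 below, as did 27.6% of all genes tested. In these 48 genes no anomaly library was below 3.26 CPM, and the highest reached 236 CPM, whereas 15 of the 50 genes had no read in at least 1 normal library. More dividing cells and more transcript per cell cannot be told apart in bulk tissue.

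The median fold change of the 50 genes was 3.77 on the log2 scale, beside 0.09 for all 14687 genes tested. Fold changes are differences between anomaly and normal means of log2(CPM + 1), which understates the change of a gene near 0. By animal, the median over the members was 3.97, 3.85 and 3.41 for anomaly animals 1, 2 and 3, each against the mean of the normal animals, and 4.73 for animal 1 by piece 2 alone. A log2 fold change of at least 3 was seen in 39 genes and of at least 4 in 18, and 4 were under 2 (Spc24, Ncapd2, Aurka and Pttg1). With animal 1 by piece 2 alone these counts were 40, 25 and 3, Ncapd2 passing 2. Among the 48 higher genes the adjusted p ran from 1.05e-04 to 0.00390, the highest being that of Anln. The 48 higher and 1 lower calls were unchanged with animal 1 by piece 2 alone, and the directions of these 49 genes held under each of the 4 other scalings tried. Those scalings moved the median of all genes from 0.09 to as much as 0.97 (library totals alone) and as little as -0.34 (trimmed mean without the 50 most abundant genes). The split of all genes was 4765 higher and 4553 lower with the deposited scaling, 8884 and 1842 with library totals, 3674 and 5968 with trimmed mean scaling on all genes, and 3658 and 5985 without the 50 most abundant genes.

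**Figure D1:**
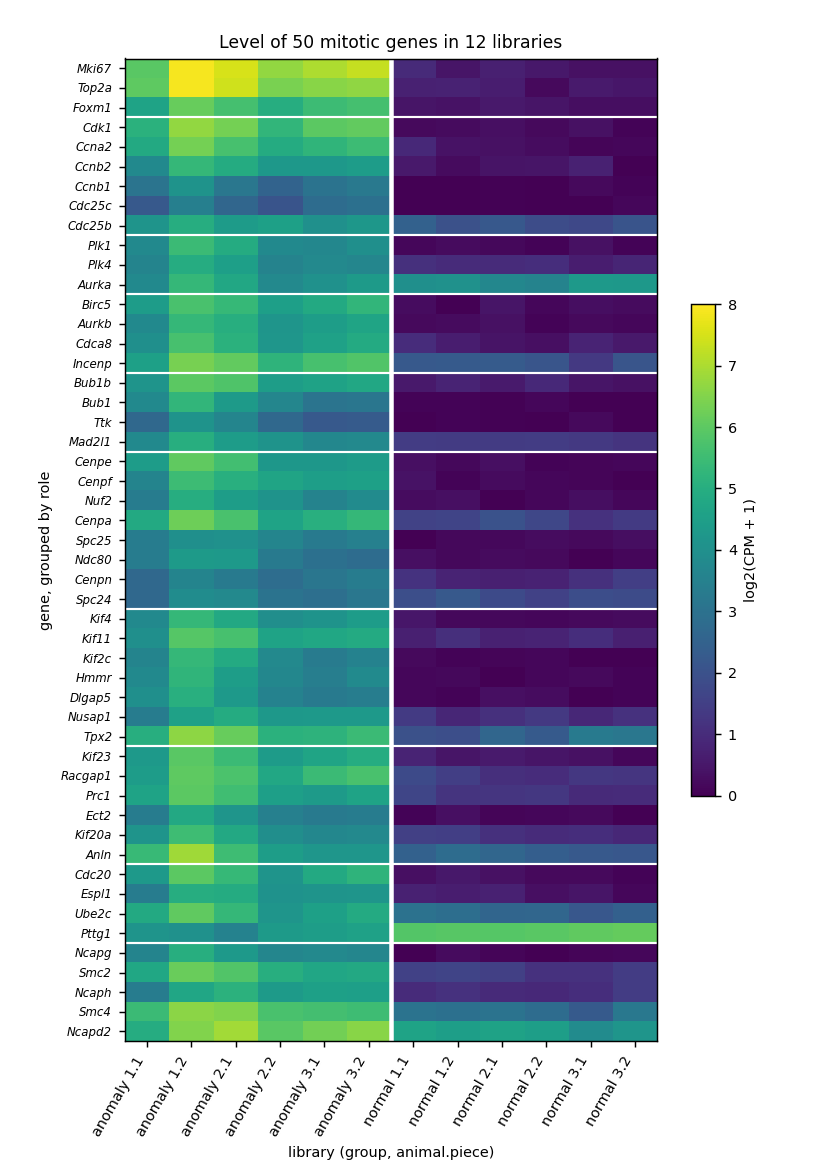
Colour shows log2(CPM + 1) of each of the 50 genes (rows, grouped by role and parted by white lines) in each of the 12 libraries (columns, named by group, animal and piece). Each row is brighter on its anomaly side than on its normal side, except Pttg1, which is brighter in normal muscle, and Aurka, which is alike on both sides.

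Most promoters found for these genes shared sequence features. The choice by name used no sequence, but 1 of the features is known from genes of G2 and mitosis. The choice was therefore not independent of it. RefSeq promoters of GRCm38.p6 (250 bases before the start of the transcript to 50 after it) were found for 40 of the 50 genes, with 42 promoters in all. Those of Mki67, Top2a and Cdk1, the members with the largest fold changes, are shown with that of Aurka, the member that was not called. Capitals mark 2 motifs on either strand. One is the cell cycle genes homology region (CHR, TTTGAA or TTTAAA), known as a binding element of the DREAM and MYB-MuvB complexes that hold back and later turn on genes of G2 and mitosis. The other is the CCAAT box (CCAAT), known to be bound by the factor NF-Y. A CHR match and a CCAAT match can share at most 1 base.
Mki67 promoter, chr7:135716330-135716629, minus strand: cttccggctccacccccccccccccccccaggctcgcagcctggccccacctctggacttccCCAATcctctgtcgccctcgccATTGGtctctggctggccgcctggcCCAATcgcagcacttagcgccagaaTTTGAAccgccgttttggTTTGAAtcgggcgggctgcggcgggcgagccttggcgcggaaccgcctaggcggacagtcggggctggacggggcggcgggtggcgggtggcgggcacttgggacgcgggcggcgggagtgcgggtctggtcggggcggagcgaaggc
Top2a promoter, chr11:99024140-99024439, minus strand: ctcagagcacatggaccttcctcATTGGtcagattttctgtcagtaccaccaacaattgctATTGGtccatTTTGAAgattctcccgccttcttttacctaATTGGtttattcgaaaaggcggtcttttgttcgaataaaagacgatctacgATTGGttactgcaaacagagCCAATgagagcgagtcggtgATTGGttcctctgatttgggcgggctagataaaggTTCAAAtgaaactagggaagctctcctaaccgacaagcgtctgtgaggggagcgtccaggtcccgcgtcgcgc
Cdk1 promoter, chr10:69352863-69353162, minus strand: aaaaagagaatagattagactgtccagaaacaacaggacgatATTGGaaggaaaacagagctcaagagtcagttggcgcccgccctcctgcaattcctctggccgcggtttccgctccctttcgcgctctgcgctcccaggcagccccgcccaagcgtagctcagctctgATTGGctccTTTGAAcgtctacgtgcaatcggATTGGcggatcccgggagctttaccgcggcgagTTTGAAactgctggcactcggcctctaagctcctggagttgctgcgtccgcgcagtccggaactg
Aurka promoter, chr2:172370521-172370820, minus strand: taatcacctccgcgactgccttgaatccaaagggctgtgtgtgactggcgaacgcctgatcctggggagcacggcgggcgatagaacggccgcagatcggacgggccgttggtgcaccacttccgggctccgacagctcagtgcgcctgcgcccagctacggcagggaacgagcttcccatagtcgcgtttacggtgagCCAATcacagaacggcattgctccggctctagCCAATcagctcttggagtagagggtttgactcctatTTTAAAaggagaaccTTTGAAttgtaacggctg
Counted from the first transcribed base as 0, the CHR matches begin at -116 and -98 in Mki67, at -179 and -23 in Top2a, at -71 and -15 in Cdk1, and at 17 and 32 in Aurka.

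A CHR match was present in 35 of 42 member promoters (83.3%), against 27.6% of all 32851 promoters of the same length. A CCAAT box was present in 32 (76.2%), against 37.4% of all promoters. Both were present in 30 (71.4%), against 10.7% of all promoters and 7.65% of those of genes tested. Among promoters of the other genes called higher in anomaly tissue, 7.87% held both, close to the share among genes tested. With the CHR limited to the last 100 bases before the start and the 50 after it, 31 of 42 member promoters (73.8%) held one, against 12.8% of all. A match to the E2F site (TTTCCCGC, TTTGGCGC, TTTGCCGC or TTTCGCGC) was rarer, in 3 member promoters (7.14%) against 2.26% of all. Aurka thus carried both motifs, as the called members shown do. The RefSeq window of Pttg1 held neither, but GENCODE places the start of this gene at 43426251 on chromosome 11, outside that window, which ends at 43426231. These are matches of letters and not sites shown to be bound. No promoter was matched for Dlgap5, Cdc25c, Kif20a, Incenp, Tpx2, Smc4, Foxm1, Spc24, Ccna2 and Aurkb.

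The classical marks of dividing cells gave the largest fold changes of the set. Mki67 (ENSMUSG00000031004, protein coding, chromosome 7, 135689784 to 135716361) encodes Ki-67, a protein of the surface of mitotic chromosomes. It stood at 61.1 and 235 CPM in the libraries of anomaly animal 1, 183 and 104 in those of animal 2 and 129 and 156 in those of animal 3. In normal muscle it stood at 0.9295 and 0.375, 0.628 and 0.426, and 0.288 and 0.283 CPM in normal animals 1, 2 and 3, so that the lowest anomaly library exceeded the highest normal library by a wide margin. The means were 145 ± 2.88 and 0.488 ± 0.186 CPM (SD, n = 3), and the log2 fold change was 6.51 ± 0.18 (SE, adjusted p = 1.05e-04). Top2a, topoisomerase II alpha, which untangles sister chromatids, ranged over 63 to 236 CPM (median 97.6) in anomaly and 0.1597 to 0.687 CPM (median 0.524) in normal libraries and rose by 6.25 ± 0.18 (adjusted p = 1.05e-04). Foxm1, a transcription factor that activates G2 and M phase genes, had the smallest change of these 3, at 5.02 ± 0.18 (adjusted p = 1.05e-04), with 24.1 to 69.7 CPM (median 46.4) against 0.216 to 0.461 CPM (median 0.337). Per kilobase of transcript, Foxm1 averaged 9.54 CPM in anomaly tissue, beside 14.4 for Mki67, whose transcript is far longer.

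The CDK1 engine rose as a whole, with all 6 genes called higher and a median log2 fold change of 3.62. Cdk1, the kinase itself, had the largest change, 5.67 ± 0.17 (adjusted p = 1.05e-04). It stood at 33.4 and 103 CPM in the libraries of anomaly animal 1, 79.4 and 37.7 in those of animal 2 and 62.6 and 66.6 in those of animal 3, and at 0.155 and 0.187, 0.251 and 0.1597, and 0.288 and 0.0567 CPM in normal animals 1, 2 and 3. The normal libraries all lay at or below 0.288 CPM. Of its cyclin partners, Ccna2 (cyclin A2) rose by 5.05 ± 0.22, Ccnb2 by 4.10 ± 0.18 and Ccnb1 by 3.14 ± 0.24. The level of Ccnb1 is uncertain, because 51.9% of its transcript is shared at 95% identity or more with 4 pseudogenes and the reads may have been split. The exons of 15 of the 50 genes overlap another gene. Among them, Ccna2 shares 510 exonic bases with Exosc9 on the opposite strand, which an unstranded kit cannot separate. The CDC25 phosphatases remove inhibitory phosphates from CDK1. Cdc25c was nearly silent in normal muscle, at 0 to 0.113 CPM (median 0), and rose by 2.67 ± 0.22 (adjusted p = 2.91e-04). Cdc25b had the smallest change of the 6, 2.33 ± 0.21 (adjusted p = 3.56e-04), with 15.3 to 30.7 CPM (median 19) against 2.302 to 4.54 CPM (median 3.11).

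Of the polo-like kinases, Plk1, which acts from mitotic entry to cytokinesis, ranged over 12.04 to 43.3 CPM (median 13.9) in anomaly and 0.0532 to 0.288 CPM (median 0.114) in normal libraries. It rose by 4.10 ± 0.25 (adjusted p = 1.50e-04). Plk4, which starts centriole duplication, rose by 3.08 ± 0.23 (adjusted p = 2.38e-04). The chromosomal passenger complex, which corrects faulty attachments and later helps cytokinesis, was higher in all 4 genes, with a median of 4.24 and medians by animal of 4.28, 4.21 and 4.23. The first of these became 5.09 with animal 1 by piece 2 alone. Birc5 (survivin) had the largest change in this complex, 4.79 ± 0.18 (adjusted p = 1.05e-04), with 20.4 to 51.1 CPM (median 32.7) against 0 to 0.377 CPM (median 0.188). Incenp, the scaffold of the complex, had the smallest, 3.56 ± 0.21 (adjusted p = 1.43e-04), with 22.2 to 81.7 CPM (median 53.1) against 1.51 to 3.94 CPM (median 3.48). Aurkb, the kinase subunit Aurora B, rose by 4.37 ± 0.17, and Cdca8 (borealin) by 4.11 ± 0.20.

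All 4 spindle checkpoint genes were higher, with a median of 3.36. Bub1b, which encodes the checkpoint protein BubR1, rose most, by 4.35 ± 0.22 (adjusted p = 1.11e-04), with 16.7 to 62.6 CPM (median 24.95) in anomaly libraries against 0.283 to 0.905 CPM (median 0.484) in normal libraries. Mad2l1, the checkpoint protein that is loaded onto Cdc20, rose least, by 2.77 ± 0.24 (adjusted p = 3.28e-04), with 12.1 to 31.3 CPM (median 14.6) in anomaly libraries against 1.304 to 1.704 CPM (median 1.63) in normal libraries. Bub1 and Ttk, the kinases of the checkpoint, changed by 3.83 ± 0.37 and 2.89 ± 0.33. Of the 10 roles this one differed most between animals, by the range of its medians, 3.90, 3.54 and 2.71 for anomaly animals 1, 2 and 3 (4.63 for animal 1 by piece 2 alone).

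At the centromere and kinetochore all 8 genes were higher. Cenpe, a kinesin that moves chromosomes to the spindle equator, changed most, by 4.62 ± 0.28 (adjusted p = 1.43e-04), with 17.7 to 64.9 CPM (median 20.1) against 0.0532 to 0.258 CPM (median 0.119). Cenpa, the histone variant that marks centromeres, rose by 3.71 ± 0.23. Spc24, a subunit of the Ndc80 complex that grips microtubules, had the smallest change of all 48 higher genes, 1.38 ± 0.21 (adjusted p = 0.00210). It stood at 5.56 and 13.7 CPM in the libraries of anomaly animal 1, 12.7 and 7.21 in those of animal 2 and 6.65 and 7.998 in those of animal 3, against 2.79 and 3.69, 2.51 and 1.92, and 2.73 and 2.55 CPM in normal animals 1, 2 and 3. The groups did not overlap, with the lowest anomaly library at 5.56 and the highest normal library at 3.69 CPM. That anomaly library was piece 1 of animal 1, where 1 unit weighed 1.85 CPM, so this gap is uncertain. The next lowest anomaly library stood at 6.65 CPM. Its transcript shares 183 bases (13.4%) with many other genes. The 4 subunits of that complex thus did not move equally, since Ndc80, Nuf2 and Spc25 rose by 3.33, 3.86 and 3.45. Per kilobase of transcript the normal mean of Spc24 was 1.97 CPM, beside 0.0624, 0.0618 and 0.116 for the others. In anomaly tissue the means of Spc24, Ndc80, Nuf2 and Spc25 lay closer together, at 6.57, 5.23, 7.05 and 9.77 CPM per kilobase.

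The 7 spindle genes were higher over a narrow range, from 3.04 to 4.17. Kif4, a chromokinesin, rose by 4.17 ± 0.19 (adjusted p = 1.05e-04), with 12.97 to 38.7 CPM (median 18.4) against 0.106 to 0.413 CPM (median 0.135). Tpx2, which activates Aurora A and nucleates microtubules, had the smallest change, 3.04 ± 0.35 (adjusted p = 7.82e-04). Its anomaly range was 31.5 to 99.6 CPM (median 38.9), and its normal libraries stood at 2.995 and 2.81, 5.23 and 3.78, and 8.78 and 8.11 CPM in normal animals 1, 2 and 3, so normal animal 3 was the highest of the normal group. Kif11, the motor that pushes spindle poles apart, rose by 4.12 ± 0.19, and Kif2c, which depolymerises microtubules at centromeres, by 3.98 ± 0.31. Among the 6 cytokinesis genes, all higher, Kif23 and Racgap1, which together form centralspindlin at the spindle midzone, rose by 4.49 ± 0.20 (adjusted p = 1.05e-04) and 4.03 ± 0.23. Anln, the scaffold protein anillin of the contractile ring, had the smallest change, 2.65 ± 0.48 (adjusted p = 0.00390). It stood at 40.8 and 115 CPM in the libraries of anomaly animal 1, 44.8 and 20.8 in those of animal 2 and 17.5 and 17.2 in those of animal 3, against 4.54 and 6.06, 5.23 and 4.26, and 3.67 and 3.51 CPM in normal animals 1, 2 and 3. The change in Anln had the largest SE of the set and differed between animals, at 3.67, 2.53 and 1.75 for animals 1, 2 and 3. Kif20a shares 1271 exonic bases with Cdc23, and Prc1 911 with Rccd1, on opposite strands.

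All 5 subunits of condensin I, the ring complex that compacts mitotic chromosomes, were higher, to unequal degrees. Ncapg, a subunit found only in condensin I, rose most, by 3.90 ± 0.22 (adjusted p = 1.35e-04), with 11.1 to 31.1 CPM (median 12.1) against 0 to 0.187 CPM (median 0.0778). Ncapd2, likewise of condensin I, rose least, by 1.82 ± 0.27 (adjusted p = 0.00186). It stood at 29.6 and 88.1 CPM in the libraries of anomaly animal 1, 118 and 60.7 in those of animal 2 and 77.1 and 95.1 in those of animal 3, against 23.8 and 21.5, 23.2 and 21.2, and 13.5 and 17.2 CPM in normal animals 1, 2 and 3. Its normal mean per kilobase, 4.33 CPM, was above those of Smc4 (1.53), Ncaph (0.419), Smc2 (0.3105) and Ncapg (0.0205), whereas in anomaly tissue Ncapd2 (16.9) and Smc4 (14.4) were close. The exons of Ncapd2 share 472 bases with small or unnamed genes on the same strand. The fold changes of Smc2 and Smc4, the ATPases that condensin I shares with condensin II, were 3.81 ± 0.25 and 3.002 ± 0.20.

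**Figure D2:**
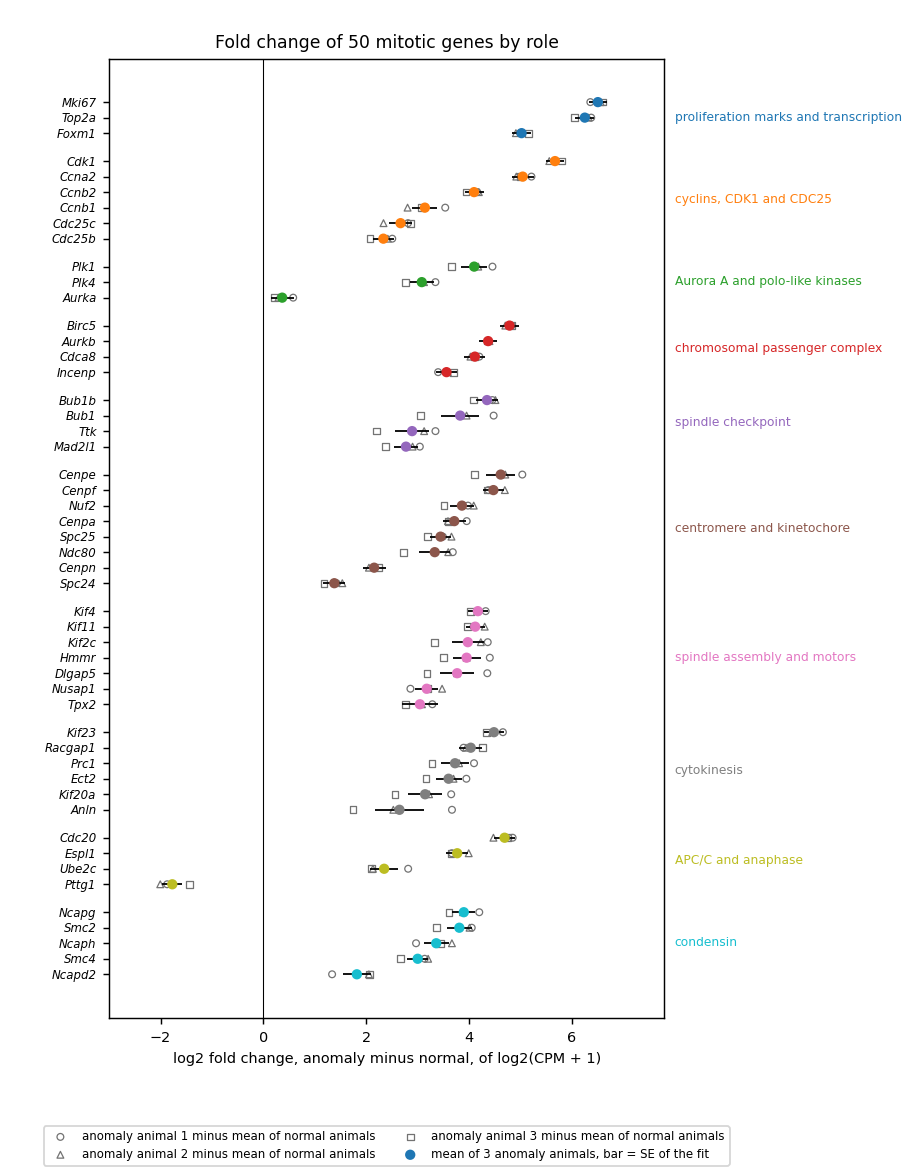
Filled points show the log2 fold change (anomaly minus normal, of log2(CPM + 1)) of each gene with the SE of the fit, coloured by role, and open symbols show each anomaly animal against the mean of the 3 normal animals. All but Aurka (0.37) and Pttg1 (-1.77) lie at 1.38 or above, up to 6.51 for Mki67.

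The genes around the APC/C parted in direction. Cdc20, which recruits substrates to the APC/C, rose by 4.69 ± 0.20 (adjusted p = 1.05e-04), with 16.7 to 62.2 CPM (median 32.1) in anomaly libraries against 0.0567 to 0.437 CPM (median 0.209) in normal libraries. Espl1, separase, rose by 3.77 ± 0.21 (adjusted p = 1.36e-04). Ube2c, the ubiquitin-conjugating enzyme of the APC/C, rose by 2.35 ± 0.28 (adjusted p = 8.76e-04), with 17.2 to 64.9 CPM (median 28.3) in anomaly libraries against 3.52 to 7.02 CPM (median 5.19) in normal libraries. Its exons share 592 bases with Tnnc2, a troponin gene of fast muscle on the opposite strand, which averaged 436 ± 58.6 CPM in normal and 14.3 ± 22.3 in anomaly animals. The part of Tnnc2 reads in the normal level of Ube2c was not tested.

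Pttg1 (ENSMUSG00000020415, protein coding, chromosome 11, 43420250 to 43426251), the securin that holds separase inactive until anaphase, was the only member to fall. It stood at 16.7 and 15.5 CPM in the libraries of anomaly animal 1, 10.8 and 19.5 in those of animal 2 and 21.03 and 23.1 in those of animal 3. In normal muscle it stood at 57.7 and 59.7, 58.1 and 60.97, and 65.2 and 67.7 CPM in normal animals 1, 2 and 3, so that every anomaly library was below every normal one. The means were 17.8 ± 3.75 and 61.6 ± 4.26 CPM (SD, n = 3). The log2 fold change was -1.77 ± 0.19 (adjusted p = 6.44e-04), which is 3.47-fold higher in normal muscle by mean CPM. The size of the fall depended on the scaling, from -0.65 with library totals (adjusted p = 0.0113 in limma) to -2.20 with trimmed mean scaling, and the call did not. With the deposited scaling it was negative in each anomaly animal (-1.87, -2.01 and -1.44). Its transcript shared no stretch of 100 bases at 95% identity with another gene, and its exons overlapped none. Pttg1 stood apart by its level in normal muscle, 64.9 CPM per kilobase. The 48 higher genes ranged from 0.0108 to 5.48 there. In anomaly tissue its 18.7 CPM per kilobase lay inside their range of 2.31 to 34.99.

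Aurka (ENSMUSG00000027496, protein coding, chromosome 2, 172356190 to 172370535), the kinase that matures centrosomes and builds spindle poles, was the only member not called. It stood at 12.97 and 39.1 CPM in the libraries of anomaly animal 1, 26.8 and 12.6 in those of animal 2 and 15.7 and 19.5 in those of animal 3, against 14.98 and 15.4, 12.1 and 10.9, and 19.2 and 18.3 CPM in normal animals 1, 2 and 3. The groups overlapped, and only the libraries highest for most other members, piece 2 of animal 1 and lesion 1 of animal 2, were clearly above the normal range. The log2 fold change was 0.37 ± 0.22 (adjusted p = 0.190). It depended on the scaling, being 1.45 with library totals alone (adjusted p = 0.00250, called higher) and -0.05 and -0.06 with trimmed mean scaling on all genes and without the 50 most abundant genes. Aurka too stood apart by its normal level, 7.94 CPM per kilobase, the next highest of the set after Pttg1, while its anomaly level was 11.1. The 5 members of highest normal level per kilobase were Pttg1, Aurka, Ube2c (5.48), Ncapd2 (4.33) and Spc24 (1.97), and they included all 4 members with a log2 fold change under 2. These measures are not independent, since the fold change is taken against the normal level. Over all 50 genes the median level was 8.75 CPM per kilobase in anomaly tissue and 0.137 in normal muscle, beside 5.18 and 4.07 over all genes tested.

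**Figure D3:**
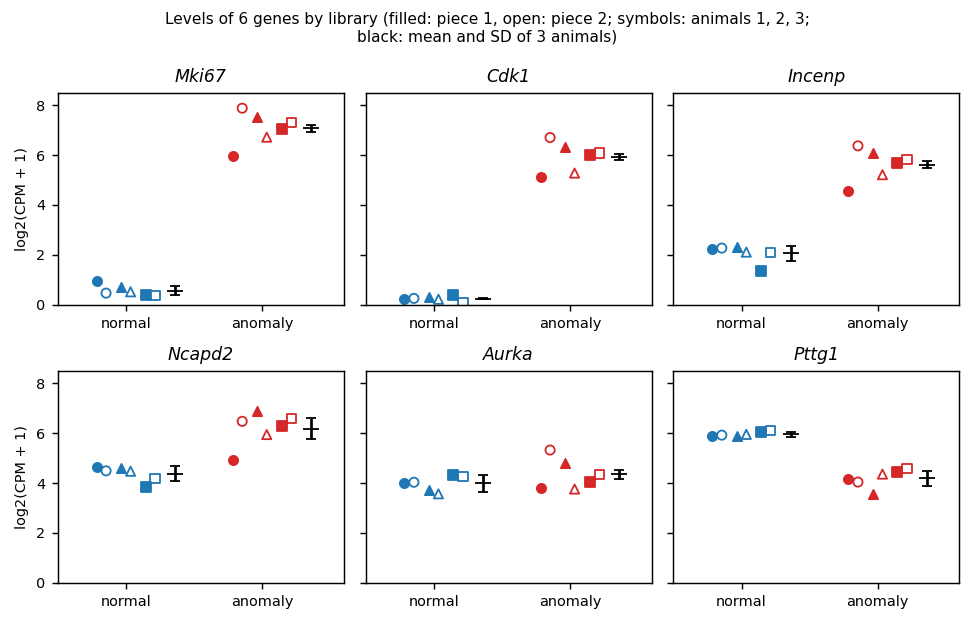
Each point is log2(CPM + 1) in 1 library (symbols mark animals, filled points piece or lesion 1, open points piece or lesion 2), with the mean and SD of 3 animals in black. Mki67, Cdk1, Incenp and Ncapd2 are higher in anomaly tissue from different normal levels, Aurka overlaps, and Pttg1 is lower in every anomaly library.

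Complexes whose subunits act together differed in transcript level, per kilobase, by up to several fold in anomaly tissue. In the chromosomal passenger complex Birc5 averaged 34.99 CPM per kilobase, beside 17.1 for Cdca8, 16.1 for Incenp and 12.5 for Aurkb. Condensin I ran from 4.37 for Ncapg to 16.9 for Ncapd2. Cdk1, Ccna2 and Ccnb2 were close, at 14.6, 14.97 and 15.01, and Ccnb1, whose level is uncertain, was at 3.498. The lengths used are those of 1 principal GENCODE transcript a gene, and the transcripts actually present were not determined.

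Within the anomaly group the set moved together from library to library. Piece 2 of animal 1 was the highest anomaly library for 45 of the 50 genes, at a median of 1.79 times the mean of the 6 libraries, and lesion 1 of animal 2 followed at 1.27 times. Piece 1 of animal 1, the library of lowest depth, was the lowest for 26 genes, at 0.620 times. Lesion 2 of animal 2 was at 0.690, and pieces 1 and 2 of animal 3 at 0.759 and 0.867. The pieces of animal 1 were thus the extremes of the group. In animal 1 piece 2 exceeded piece 1 in 49 of 50 genes with a median ratio of 2.89, where the 8811 genes with at least 10 CPM in anomaly tissue had a median ratio of 1.61. In animal 2 lesion 1 exceeded lesion 2 in 48 of 50 genes with a median ratio of 1.84, against 1.07 for those genes. In animal 3 the median ratio of piece 2 to piece 1 was 1.14, with 44 of 50 genes above 1, against 0.994. The shares of all genes that were highest, lowest or higher in these libraries were not counted.

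Aurka followed the other members across the anomaly libraries, with ratios of 3.01, 2.14 and 1.24 in animals 1, 2 and 3. Pttg1 did not, with 0.927, 0.551 and 1.10. Cdc25b was the other gene below 1 in animal 2, at 0.900. These ratios compare single libraries and carry no test. Averaged by animal, 39 genes were higher in animal 1 than in animal 3, 35 in animal 2 than in animal 3 and 34 in animal 1 than in animal 2. With animal 1 by piece 2 alone, 49 were higher in it than in animal 3 and 48 than in animal 2. None of the 50 differed among the anomaly animals in limma's F test on the libraries at an adjusted p under 0.05, where 16.3% of 13815 genes did. At an unadjusted p under 0.05 in the same limma test there were 2, Anln and Bub1 (adjusted p = 0.0715 and 0.156), against 30.2% of all genes. With library totals alone 1 member passed. The spread against which this test sets the animals is that between pieces, which was wide for these genes.

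**Figure D4:**
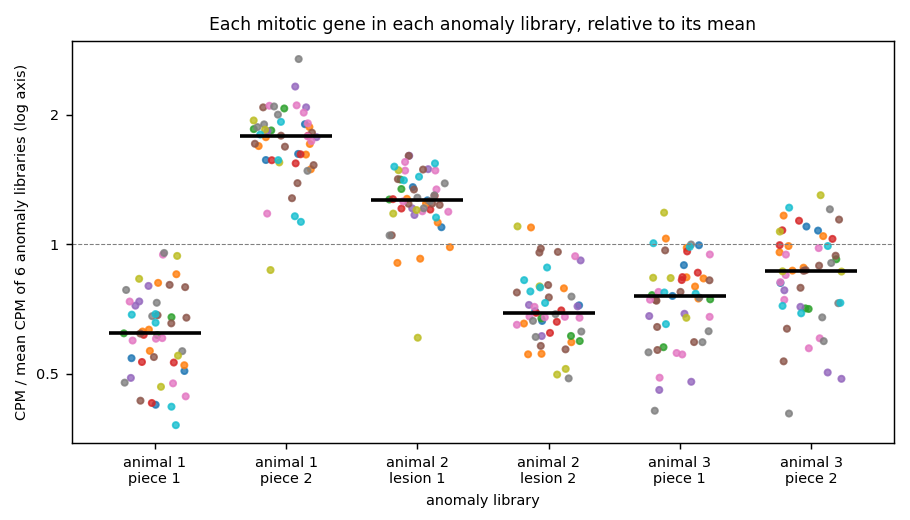
Each point is 1 of the 50 genes in 1 anomaly library, as its CPM divided by the mean of the 6 anomaly libraries (log axis), coloured by role, with the median as a bar. The points sit around 1.79 in piece 2 of animal 1 and around 0.620 in piece 1 of the same animal.

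Neither the endothelial nor the macrophage markers followed the order of libraries of the mitotic genes throughout. By summed level the endothelial genes, like the mitotic genes, were lowest in piece 1 of animal 1. As with the mitotic genes, they were higher in piece 2 of animal 1 and in lesion 1 of animal 2. In animal 3 they were higher in piece 1, where the mitotic genes were higher in piece 2. The macrophage markers, like the mitotic genes, were highest in piece 2 of animal 1 by summed level. In animal 2, however, they were higher in lesion 2, where the mitotic genes were higher in lesion 1. The endothelial genes summed to 2240.3 and 5179.8 CPM in the libraries of animal 1, 6735 and 4786 in the lesions of animal 2, and 8358 and 6532 in those of animal 3, the highest being piece 1 of animal 3, followed by lesion 1 of animal 2. The 12 macrophage genes summed to 1484 and 3433, 2428 and 3019, and 723 and 639.9 CPM in the same order, though their median log2(CPM + 1) was highest in lesion 2 of animal 2, at 7.58 against 7.31 in piece 2 of animal 1. The 50 mitotic genes summed to 932 and 2762, 2065 and 1116, and 1256 and 1435. Contractile genes reached 16037 and 48959.5 CPM in animal 3 and at most 2781 in the other 4 anomaly libraries. The mitotic sums of animal 3 lay within the range of those libraries. The median log2 fold change of the 50 genes was lowest in animal 3, at 3.41 against 3.97 and 3.85 in animals 1 and 2. Any link between contractile and mitotic levels was not tested.

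Several of these markers moved with the mitotic genes between the groups. Of the endothelial list 11 of 12 genes were higher, none lower, led in abundance by Cdh5 (mean 1141 ± 138 against 97.3 ± 20.2 CPM, SD, n = 3) and Pecam1 (1135 ± 246 against 77.98 ± 7.49). All 12 macrophage genes were higher, among them Lyz2 (637 ± 382 against 40.3 ± 19.7) and Mpeg1 (291 ± 248 against 2.95 ± 0.887), with a summed level of 639.9 to 3433 CPM against 40.6 to 247 CPM. Of the fibroblast list 6 of 10 were called higher, 4 were not called and none was called lower. The most abundant were Col1a1 (1493 ± 1010.1 against 44.1 ± 26.7) and Col3a1 (1348 ± 832 against 93.7 ± 61.7). The sums were 2131 to 8385 CPM against 156 to 805 CPM. Log2 fold changes in this list ran from -2.32 to 4.88, with a median of 1.58. In 1 of its genes all anomaly animals lay below all normal animals. Mural cell genes gave 7 higher and 1 lower of 10, with Rgs5 at 728 ± 550.1 against 279 ± 71.4 and Abcc9 at 118 ± 25.7 against 454 ± 32.6, and sums of 1067 to 2885 CPM against 622 to 1117 CPM.

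Lymphocyte genes gave 4 higher and none lower of 10 at low levels, 22.2 to 132 CPM in sum against 3.87 to 22.6 CPM, the most abundant being Ptprc, which all leukocytes express (56.4 ± 38.5 against 3.19 ± 1.59), and Lck (6.46 ± 4.25 against 0.246 ± 0.0798). Of 6 erythroid genes tested 3 were higher and 1 lower. The sums were 80.5 to 1988 CPM against 528 to 914 CPM, led by Ank1 (15.4 ± 20.2 against 705 ± 169.6), which muscle also expresses, and Alas2 (536.5 ± 815 against 7.69 ± 2.63). Satellite cell and myoblast genes gave 1 higher and 6 lower of 10 tested, with sums of 75.5 to 7748 CPM against 4979.6 to 7213 CPM, led by Des (727 ± 1153 against 5994 ± 973) and Myh8 (893 ± 1543 against 9.699 ± 1.04). Of the contractile list 13 of 14 genes were lower and none higher, led by Myh4 (226 ± 186 against 112807 ± 24476) and Atp2a1 (1377 ± 2159.8 against 56802 ± 8161). No marker with a row was at 0 in all libraries of either group. With library totals alone the satellite cell and myoblast list gave 1 higher and 3 lower, Pax7 and Myog losing their calls, and the lymphocyte list 7 higher. Over the scalings tried, 5 to 6 fibroblast genes were higher (1 lower with trimmed mean scaling), 6 to 8 mural cell, 3 to 4 erythroid, 11 to 12 endothelial and 11 to 12 macrophage genes, and 13 contractile genes were lower throughout. Which cells carried the mitotic transcripts, and the part of each cell type in their rise, was not tested.

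**Figure D5:**
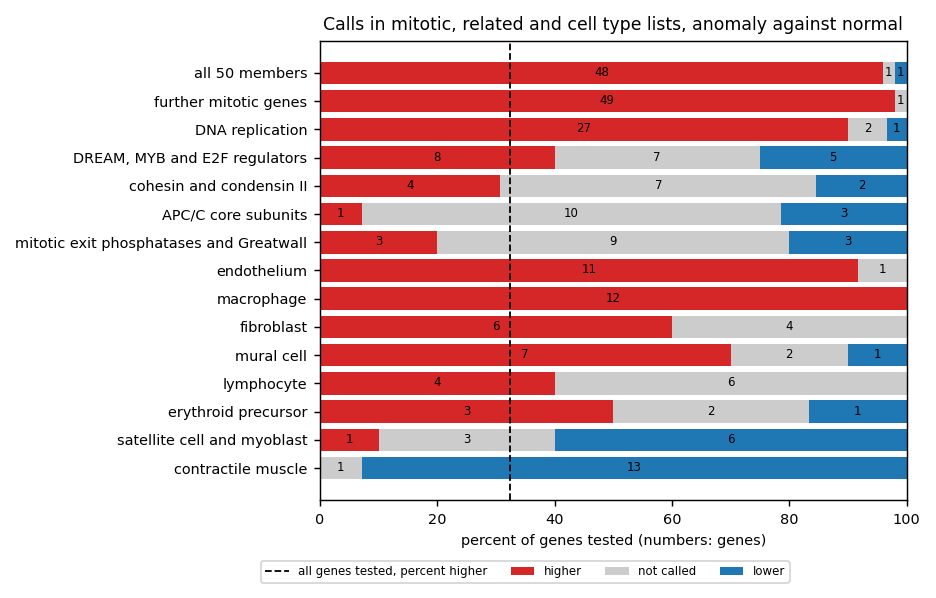
Bars show the percent of tested genes of each list called higher (red), not called (grey) or lower (blue) in anomaly tissue at an adjusted p under 0.05, with the number of genes in each, and the dashed line marks the 32.4% of all genes tested that were higher. The mitotic and replication lists are nearly all red, whereas the APC/C core, cohesin and phosphatase lists are mostly grey.

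Mitotic genes outside the 50, a list also chosen with earlier results of these data known, behaved alike. Their median log2(CPM + 1) in normal libraries was 0.194 to 0.331, and genes that low could pass the filter only through the anomaly group. Of 50 further genes of mitosis 49 were higher and none lower, with a median log2 fold change of 3.15. Those of smallest p were Fam64a (4.27 ± 0.18, adjusted p = 1.05e-04), Ckap2l (4.22 ± 0.18, adjusted p = 1.05e-04) and Kif22 (4.24 ± 0.18, adjusted p = 1.05e-04). The 1 not called was Zwint, a kinetochore protein gene at 63.6 ± 15.7 and 64.7 ± 1.17 CPM (SD, n = 3), with a fold change of -0.06 ± 0.20 (adjusted p = 0.807). Their promoters held both CHR and CCAAT matches in 20 of 49 cases (40.8%). DNA replication genes, which act in S phase, were higher in 27 of 30, with a median of 2.41, led by Mcm5 (4.66 ± 0.18, adjusted p = 1.05e-04), Uhrf1 (4.95 ± 0.23, adjusted p = 1.05e-04) and Cdt1 (3.98 ± 0.21, adjusted p = 1.11e-04). The licensing helicase gene Mcm5 thus rose from 1.44 ± 0.102 to 64.7 ± 7.39 CPM. Rfc4, of the clamp loader, was lower by a small margin (-0.55 ± 0.20, adjusted p = 0.0491), and Gins4 and Rrm1 were not called. Rfc4 turned to 0.47 with library totals and was not called with animal 1 by piece 2 alone (-0.39, adjusted p = 0.165 in limma). Over the scalings tried, 48 to 50 of the further mitotic genes and 27 to 29 of the replication genes were higher. With the filter raised to 5 CPM, below which genes were not tested, 39 and 25 were called higher.

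Genes for machinery that mitosis uses but that is not made only in dividing cells showed mixed calls, which depended on the scaling far more than those of the 50 genes. Of 14 core subunits of the APC/C, 1 was higher (Cdc16, 0.67 ± 0.16, adjusted p = 0.0103), 10 were not called, and 3 were lower: Anapc13 (-2.13 ± 0.19, adjusted p = 3.45e-04), Anapc5 (-2.40 ± 0.42, adjusted p = 0.00338) and Anapc16 (-0.85 ± 0.18, adjusted p = 0.00790). Their median was 0.21, beside 4.69 and 2.35 for Cdc20 and Ube2c. With library totals alone 11 were higher and 2 lower (median 1.24, Anapc16 turning to 0.28), and with trimmed mean scaling none was higher and 5 were lower (median -0.22). With animal 1 by piece 2 alone and the deposited scaling, 4 were higher, 3 lower and 7 not called. Of 13 genes of cohesin, its loaders and releasers, and condensin II, 4 were higher and 2 lower, with a median of 0.14. The higher genes of smallest p were the condensin II subunit Ncapg2 (3.07 ± 0.28, adjusted p = 3.69e-04) and the cohesin ring subunit Smc1a (1.08 ± 0.22, adjusted p = 0.00573), and the lower ones were Pds5b (-0.97 ± 0.19, adjusted p = 0.00582) and Stag2 (-0.48 ± 0.17, adjusted p = 0.0423). The other condensin II subunits Ncapd3 and Ncaph2 had fold changes of -0.02 and -0.19 and were not called. With library totals alone 12 of the 13 were higher and none lower, Stag2 turning to 0.66 and Pds5b to 0.17, and with trimmed mean scaling 1 was higher and 4 were lower. Ncapg2 was higher throughout. With animal 1 by piece 2 alone 6 were higher and 2 lower.

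Among 15 phosphatase and mitotic entry genes 3 were higher and 3 lower. Higher were the CDK1-inhibiting kinases Pkmyt1 (2.83 ± 0.23, adjusted p = 2.87e-04) and Wee1 (1.14 ± 0.37, adjusted p = 0.0337), and Mastl (Greatwall), which restrains the phosphatase PP2A in mitosis (2.20 ± 0.21, adjusted p = 4.59e-04). Lower were Ppp1cb (-2.12 ± 0.25, adjusted p = 8.40e-04), Ensa, a target of Greatwall (-1.80 ± 0.28, adjusted p = 0.00226), and Ppp2r2d (-0.65 ± 0.21, adjusted p = 0.0334). These counts became 12 higher and 2 lower with library totals, where Ppp2r2d turned to 0.48, and 2 higher and 9 lower with trimmed mean scaling, where Wee1 was not called. Of 20 regulators that act on cell cycle promoters 8 were higher and 5 lower, with a median of 0.33. The activator E2f1 (4.38 ± 0.25, adjusted p = 1.39e-04) and the atypical repressors E2f7 (3.54 ± 0.21, adjusted p = 1.43e-04) and E2f8 (3.61 ± 0.29, adjusted p = 2.95e-04) were higher, as was Mybl2 (3.24 ± 0.23, adjusted p = 2.19e-04), the B-MYB partner of the MuvB core. Rbl2 (p130), the pocket protein of the DREAM complex in resting cells, was lower (-2.17 ± 0.25, adjusted p = 7.63e-04), and so were E2f6 (-3.29 ± 0.21, adjusted p = 1.57e-04), Tfdp2 (-1.85 ± 0.33, adjusted p = 0.00365), Lin52 (-1.35 ± 0.24, adjusted p = 0.00391) and E2f3 (-0.59 ± 0.19, adjusted p = 0.0318). Of the other MuvB core genes examined, Lin54 was higher (0.60 ± 0.17, adjusted p = 0.0218), and Lin9, Lin37 and Rbbp4 were not called. The counts of regulators became 14 higher and 2 lower with library totals, where E2f3 turned to 0.52 and Lin52 and Tfdp2 were not called, and 7 higher and 8 lower with trimmed mean scaling, where Lin54 was not called. E2f3 was also not called with animal 1 by piece 2 alone (-0.51, adjusted p = 0.0678 in limma).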

How the data were processed

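The authors deposited 1 table of log2 CPM for 30389 Ensembl genes in 12 libraries. The tools were STAR and limma and the build was mm10 (GRCm38), without versions, per the submitters' processing notes, and per the labels' protocols the libraries came from an unstranded poly-A kit. The deposited log2 values share a floor of -6.707. With the floor removed, 100% of the low nonzero values, to which the step was fitted, were whole multiples of 1 step per library within 0.01. Higher values were not checked. All values were rounded to whole steps, taken as reads and as depth. The authors' library sizes include a composition factor.

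CPM was recovered, and each animal was given the mean log2(CPM + 1) of its 2 libraries. The 14687 genes that averaged 1 CPM or more in either group were tested with limma 3.58.1 in R 4.3.3 (trend, Benjamini-Hochberg adjustment over all genes tested, 0.05). Differences among anomaly animals used limma's F test on libraries. Permuting 3 animals against 3 has 0.1 as its smallest two-sided p, so no gene was tested that way. The fit was tested on simulated data. Lengths, coordinates and overlaps came from GENCODE transcripts of GRCm38, shared sequence from blastn 2.17.0, and promoters from RefSeq. Figures were drawn with matplotlib 3.10.9. Animals and pieces are numbered in order of deposit.

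The 50 members and all gene lists were chosen with earlier results of these data known. Given in full were the member of largest and of smallest fold change in each role and members not called or lower, the 3 genes of smallest p and up to 5 contrary genes of each further list, and the 2 most abundant genes of each cell type list. Other genes were named after their values were seen. Alternatives were other scalings, filters, pseudocounts and thresholds, single pieces, 12 libraries with animal as a random block, recovered reads with voom, and leaving out each animal.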

Additional observations from a re-analysis of the deposited data

Results flagged for a closer look

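Of 100 groups of 6 libraries examined (each of the 50 genes in each group), 3 held a library far from the other 5, where chance gives about 1 in 20. Ccna2 stood at 0.91 on the log2(CPM + 1) scale (0.878 CPM) in piece 1 of normal animal 1, and at 0.10 to 0.39 in the other normal libraries. Kif4 stood at 0.50 (0.413 CPM) in the same library, and at 0.15 to 0.23 in the others. Incenp stood at 1.33 (1.51 CPM) in piece 1 of normal animal 3, below the 2.10 to 2.30 of the others.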

How the results depend on the processing

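Over the 22 alternatives the count of mitotic genes higher in anomaly tissue stayed at 48 and of those lower at 1, except that library totals alone gave 49 higher. Calls and directions of 49 of the 50 genes never changed. Aurka changed in 3 settings, and its fold change reversed to -0.0524 with trimmed mean scaling on all genes and to -0.0591 without the 50 most abundant genes. The median log2 fold change of 3.77 moved to 4.47 with library totals, 3.48 and 3.47 with trimmed mean scaling on all genes and without the 50 most abundant, 4.87 and 2.33 with pseudocounts of 0.25 and 4 CPM, and 6.21 with voom on recovered reads, since a smaller pseudocount widens differences from values near 0. Leaving out each animal gave 48 higher and 1 lower throughout, with medians of 3.62 to 3.94. In other settings the median was 3.61 to 3.998. Among the anomaly animals, 0 of the 50 genes differed with the deposited scaling and without piece 1 of animal 1, and 1 with library totals. A fit with the piece number as a block gave 48, 1 and 3.77. The numbers did not pair the samples, since piece differences correlated at -0.199 to 0.156 between animals, over 0.1 in 3 of 15 pairs. With 3 animals a group and 1 unit worth 1.85 CPM in 1 library, levels near 1 CPM were not resolved there.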
